A study of Mus musculus with 6 samples.

Results

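Semaphorins, ephrins, netrins and slits are guidance cues, and plexins, neuropilins, Eph receptors, Unc5 receptors and Robo receptors are the proteins on the cell surface that read them. The genes described here are those of mouse whose symbol places them in one of these families, by the patterns Sema3 to Sema7, Plxna to Plxnd, Nrp, Epha and Ephb, Efna and Efnb, Ntn, Unc5, Robo and Slit. This gave 67 genes of the 19938 that had a transcript cluster of their own, a transcript cluster being the set of probes that stands for a gene on the array. The 67 genes comprise 35 ligand genes and 32 receptor genes. They had 72 transcript clusters, and for the 5 genes with more than 1 the brightest cluster, by its mean over all 6 arrays, was read. Ephb2 was not analysed here.

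The study asked which transcripts differ when Nkx2-1, a homeobox transcription factor of lung and thyroid epithelium, is reduced in lung epithelial cells. All 6 arrays hold RNA of MLE15 (MLE-15 in the sample labels), a mouse line from lung tumors of transgenic animals in which the human surfactant protein C promoter drives a viral oncogene (SV40 large T), so both groups carry this transgene and its driver is a promoter of alveolar epithelium. The Nkx2-1-shRNA group (n = 3) had received lentivirus with a mix of shRNAs against Nkx2-1. The control group (n = 3) had, by its labels, received the empty pLKO.1 vector, and both groups were selected with puromycin. The paper calls this control non-silencing, and the names do not settle whether the controls carried an shRNA. The labels give 48 h, while the methods speak of stable, independently transduced lines and give no time. All lines of both groups derive from this 1 parent line. In RNA of whole cultures, fewer cells of a type and less RNA per cell cannot be told apart.

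Nkx2-1 itself stood at 7.91, 7.98 and 7.83 (log2 scale) in the Nkx2-1-shRNA lines, here also called knock-down lines, and at 8.61, 8.61 and 8.59 in the controls. This is 61.8% of control (log2 fold change −0.69, SE 0.076, adjusted p = 0.00155; exact two-sided permutation test, p = 0.1, the smallest that 3 lines against 3 allow). Array medians ran from 5.10 to 5.14 in the knock-down lines and from 5.18 to 5.21 in the controls, and no array stood apart within its group (correlations of 0.991 to 0.994 within and 0.979 to 0.983 between groups). Genes of odor and taste receptors, taken to be silent in such cells, served as the measure of background: 95% of their 1245 transcript clusters lay under 4.34, and a lower level is called below the background limit. Of 18 lung epithelial markers 16 were above this limit in at least 1 group, Lamp3 and Scgb1a1 being the exceptions. Of the 18, 5 rose and 6 fell at an adjusted p under 0.05, the targeted gene Nkx2-1 itself being among those that fell. Of all 19938 genes 10.7% were higher and 9.88% lower, shares to be read beside the counts of each marker list here. The mean over the lung list was 7.58 to 7.75 in the knock-down lines and 7.78 to 7.85 in the controls. That mean hides large single changes. The surfactant protein C gene Sftpc fell most, from a mean of 7.73 in the controls to 4.08, below the limit (log2 fold change −3.65, adjusted p = 1.95e-04). Cldn4 rose most, from 6.91 to 8.65 (1.74, adjusted p = 6.1e-04). Of 10 endothelial markers 6 were above the limit in at least 1 group, with Egfl7 (means of 6.46 in the knock-down lines and 6.44 in the controls) and Vwf (6.26 and 5.84) the brightest, while Pecam1, Cdh5, Kdr and Emcn were below it in both. Their mean was 4.41 to 4.55 against 4.58 to 4.68 in the controls, with 1 higher (Vwf) and 1 lower (Tek, 3.77 against 5.77). Of 9 leukocyte markers 3 were above the limit, Cd68 (6.67 and 6.81), Cd14 (5.52 and 5.38) and Cd3e (4.74 and 4.87), and Ptprc was below it in both groups. Over 10 neuronal markers it was 4.24 in every knock-down line against 4.09 to 4.17, with 1 higher (Map2), none lower and 4 above the limit. For 10 fibroblast markers, 6 of them above the limit and none past the test, it was 4.31 to 4.37 against 4.24 to 4.34. For the leukocyte markers it was 4.15 to 4.33 against 4.15 to 4.28, with 1 higher (Csf1r, below the limit in both groups). Whether these lists had a part in the results that follow was not tested.

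The guidance families were named for their work in the growing nervous system, but most of them also act in epithelia and vessels. Class 3 semaphorins are secreted and signal through a neuropilin, which binds them, and a plexin, which carries the signal into the cell by acting on small GTPases and the cytoskeleton; Sema3e is the exception and binds Plxnd1 directly. Neuropilins are also co-receptors for vascular endothelial growth factors. Ephrins are bound to the membrane, so Eph signaling needs contact between cells and can run in both directions. Netrins bind Dcc and Unc5 receptors and slits bind Robo receptors, and both systems take part in branching of the lung.

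Of the 67 guidance genes, 21 were higher and 7 lower in the Nkx2-1-shRNA lines at an adjusted p under 0.05. Among all transcript clusters 7.61% were higher and 9.24% lower, and among all 19938 genes, read like the guidance genes by 1 cluster each, 10.7% and 9.88%. At the stricter limits of the study, an adjusted p below 0.0005 with a log2 fold change above 0.6 in size, Sema3e, Unc5b, Sema3c and Nrp2 were higher and Plxna4 and Nrp1 lower, where 0.804% and 0.456% of all transcript clusters and 1.25% and 0.622% of all genes passed. For 26 guidance genes every Nkx2-1-shRNA line lay above every control line and for 8 every one lay below, against 15.1% and 19.8% of transcript clusters and 19.8% and 20.4% of genes. The median log2 fold change was 0.08 for the guidance genes and −0.01 for all 19938 genes. Of the guidance genes, 54 were above the background limit in at least 1 group, among them the 21 higher and 6 of the 7 lower ones; of all 13595 genes above it, 15.3% were higher and 13.9% lower. Since a gene can pass this limit through its brighter group alone, these last counts are given for orientation only. The 39 genes that did not pass ran from −0.26 to 0.32. Ligand genes gave 13 higher and 4 lower of 35, and receptor genes 8 and 3 of 32. Of the 28 genes called, 12 had an adjusted p under 0.05 in every one of the 17 alternative analyses. They were Sema3c, Sema3e, Sema4b, Sema4c, Sema5a, Efnb2, Unc5b, Nrp1, Plxna1, Plxna2, Plxna4 and Plxnd1.

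**Figure D1:**
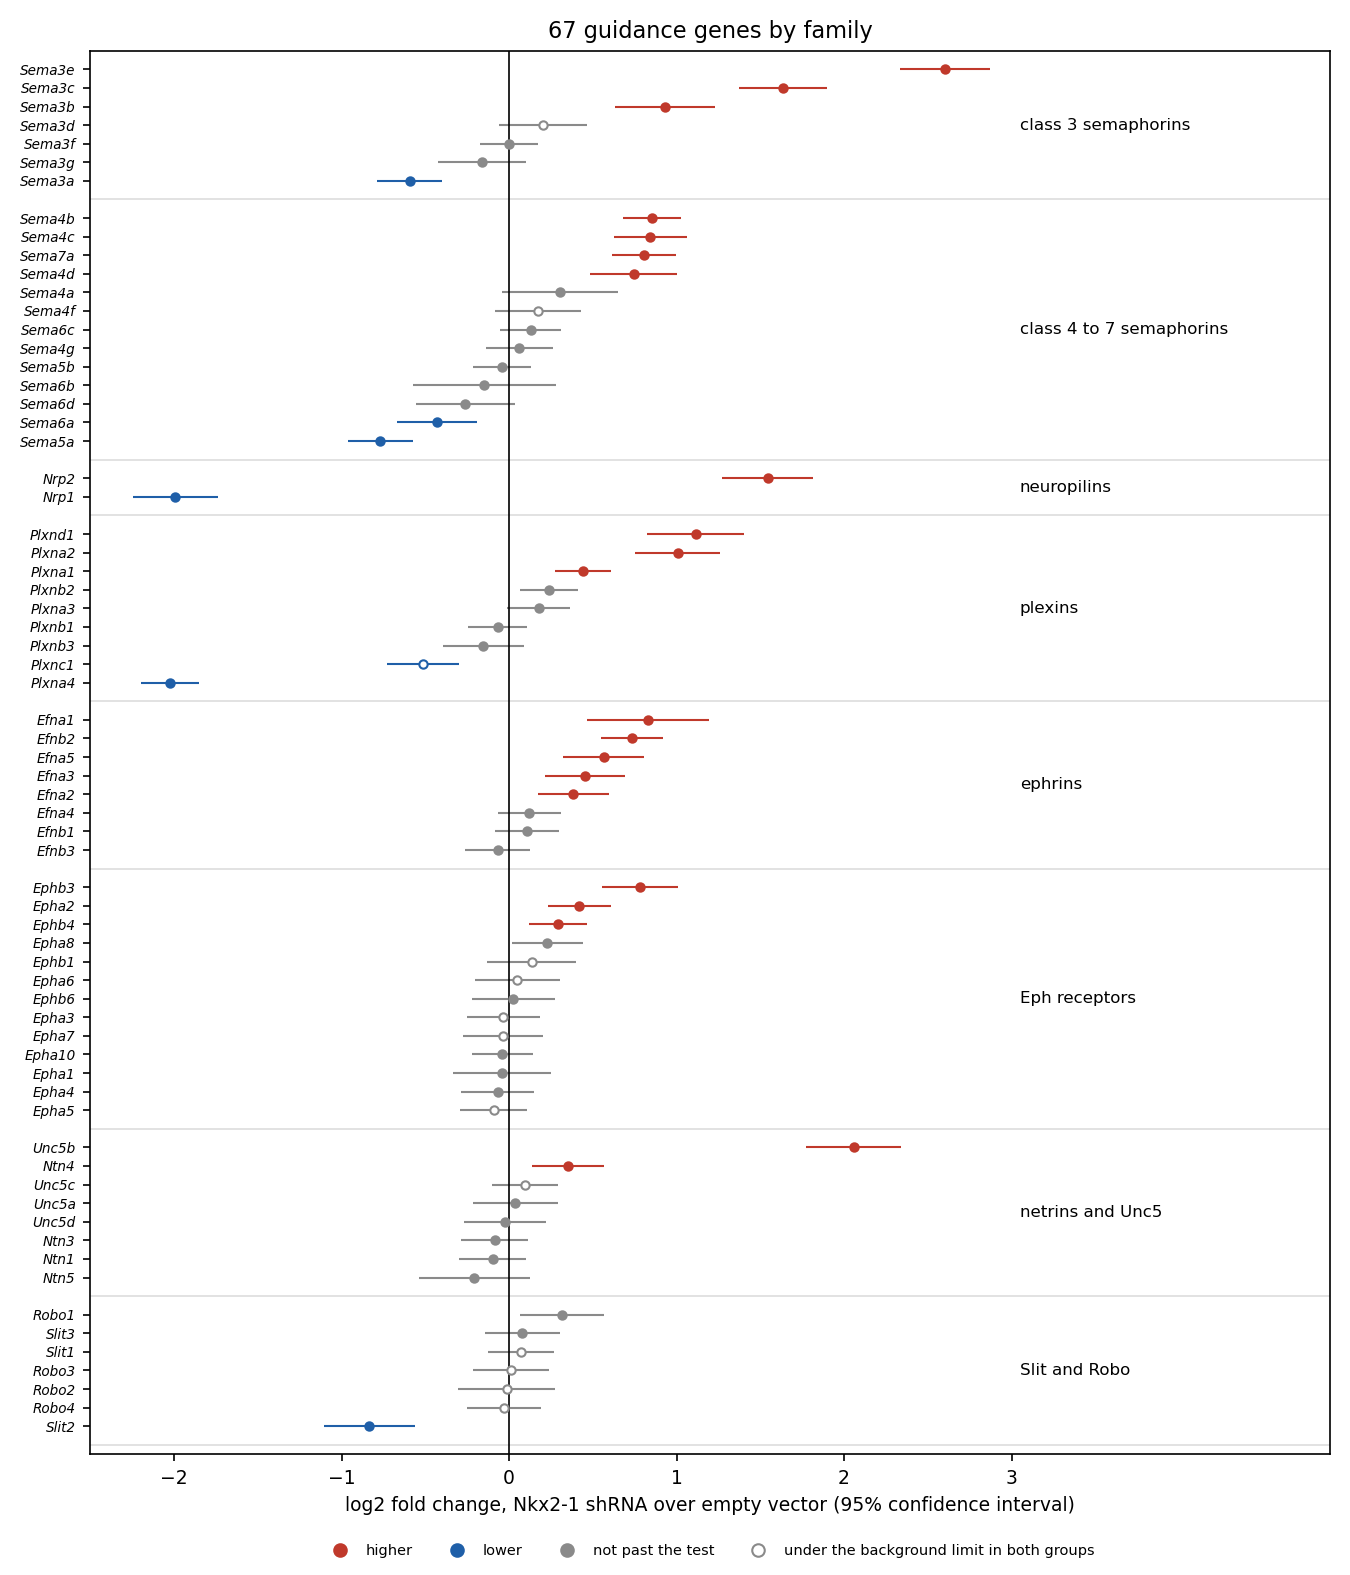
Log2 fold change of each of the 67 guidance genes (horizontal axis; Nkx2-1-shRNA over control, n = 3 lines each, bars are 95% confidence intervals), grouped by family. Red points are the 21 genes called higher, blue points the 7 called lower and grey points the 39 that did not pass; open points were below the background limit in both groups. The points run from Plxna4 at −2.02 to Sema3e at 2.60.

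The class 3 semaphorins held the largest rise of the 67 genes. Sema3e (transcript cluster 10519747, chromosome 5), a secreted ligand of Plxnd1 known for repelling vessels and axons, stood at 7.52, 7.34 and 7.41 in the knock-down lines and at 4.79, 5.02 and 4.66 in the controls. The controls were just above the background limit and the groups lay far apart, a 6.07-fold difference (log2 fold change 2.60, SE 0.114, adjusted p = 6.9e-05). Sema3c (10519886, chromosome 5), a ligand of neuropilins best known from the cardiac outflow tract, stood at 7.62, 7.77 and 7.59 against 5.83, 6.16 and 6.08, a 3.11-fold rise (1.64, SE 0.111, adjusted p = 2.5e-04). Sema3b (10596680, chromosome 9), often described as a tumor suppressor of lung, stood at 6.77, 7.03 and 6.69 against 6.08, 5.84 and 5.78 (0.93, SE 0.125, adjusted p = 0.00357). When variances were allowed to differ between the groups, Sema3b was no longer called (adjusted p = 0.0523).

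Sema3a moved the other way. This classical repellent ligand of Nrp1 (10519717, chromosome 5) stood at 8.19, 8.16 and 8.22 in the knock-down lines and 8.77, 8.89 and 8.69 in the controls, with no overlap (−0.59, SE 0.082, adjusted p = 0.00401; 0.0743 when unequal variances were allowed). Sema3f, a ligand that prefers Nrp2, was level at 7.51, 7.45 and 7.46 against 7.52, 7.42 and 7.47 (log2 fold change −0.00044, 95% confidence interval −0.17 to 0.17, adjusted p = 0.998). Sema3g did not pass (−0.16, adjusted p = 0.403), and Sema3d (0.20, adjusted p = 0.288) was under the background limit whether Nkx2-1 was reduced or not. In all, 3 of the 7 class 3 genes were higher and 1 lower.

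Sema3d, Sema3a, Sema3e and Sema3c follow each other in this order on chromosome 5. The 20 nearest genes above background, 10 on each side, had a median log2 fold change of 0.47 around Sema3a, 0.42 around Sema3e and 0.36 around Sema3c (0.42, 0.42 and 0.36 with the semaphorins left out). No other gene above background lies between Sema3a, Sema3e and Sema3c, so their sets of neighbors are largely the same genes and not separate counts. Of these neighbors, 16 around Sema3a, 15 around Sema3e and 15 around Sema3c had values above 0. The upper quartile around Sema3a, with Sema3e and Sema3c among its neighbors, was 1.65, close to the rise of Sema3c. Against this direction, Cd36, a fatty acid transporter gene, had −2.58 and Gnai1, an inhibitory G protein gene, −1.12. The rises of Sema3e and Sema3c were 2.18 and 1.28 above their neighbors' median and Sema3a lay 1.06 below its own, on the log2 scale. Whether the stretch had a part in these changes was not tested.

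The 2 neuropilin genes moved in opposite directions. Nrp1 (10576639, chromosome 8), the binding subunit for Sema3a, stood at 4.78, 4.95 and 4.80 in the knock-down lines and at 6.96, 6.89 and 6.66 in the controls. This left 25.1% of control (log2 fold change −1.99, SE 0.106, adjusted p = 1.1e-04). Nrp2 (10346843, chromosome 1), which binds Sema3c and Sema3f, stood at 7.83, 7.77 and 7.82 against 6.47, 6.26 and 6.06. The groups did not overlap for either gene, and Nrp2 was 2.91-fold higher (1.54, SE 0.115, adjusted p = 3.7e-04). With a test for unequal variances Nrp1 was still called (adjusted p = 0.0223) and Nrp2 was not (adjusted p = 0.0713).

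Plexins were split as well, with 3 of 9 higher and 2 lower. Plxna4 (10543802, chromosome 6), a partner of neuropilins and a receptor of Sema6a, had 5.52, 5.46 and 5.44 in the knock-down lines and 7.48, 7.54 and 7.47 in the controls. This was the largest fall of the 67 genes, to 24.6% of control (−2.02, SE 0.073, adjusted p = 4.4e-05). Plxnd1 (10547100, chromosome 6), the receptor of Sema3e, stood at 7.73, 7.58 and 7.90 against 6.80, 6.48 and 6.59 (1.11, SE 0.123, adjusted p = 0.00159). Plxna2 (10352867, chromosome 1) stood at 7.32, 7.10 and 7.38 against 6.36, 6.29 and 6.13 (1.01, SE 0.107, adjusted p = 0.00141). For both genes the lowest Nkx2-1-shRNA line lay well above the highest control. Plxna1, another partner of neuropilins, rose by less, from 8.09, 8.11 and 8.11 to 8.55, 8.51 and 8.58 (0.44, SE 0.070, adjusted p = 0.00686). Among the A plexins, then, 2 were higher, 1 was lower and Plxna3 did not pass (0.18, 95% confidence interval −0.012 to 0.36, adjusted p = 0.196).

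The plexins of class B, which read class 4 semaphorins, did not pass. Plxnb1 had −0.068 (95% confidence interval −0.24 to 0.11, adjusted p = 0.622), and its sign turned with median centring (0.013). Plxnb2 stood at 9.49, 9.43 and 9.47 against 9.25, 9.25 and 9.17, so that its groups did not overlap, but its log2 fold change of 0.24 had an adjusted p of 0.0710 and passed in 7 of 17 alternatives (0.0252 to 0.212). Plxnb3 had −0.15 (adjusted p = 0.379). Plxnc1, the receptor of Sema7a, was called lower (3.34, 3.18 and 3.11 against 3.69, 3.80 and 3.69; −0.51, adjusted p = 0.0104), with both groups below the background limit. That call ended when unequal variances were allowed (adjusted p = 0.0842).

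**Figure D2:**
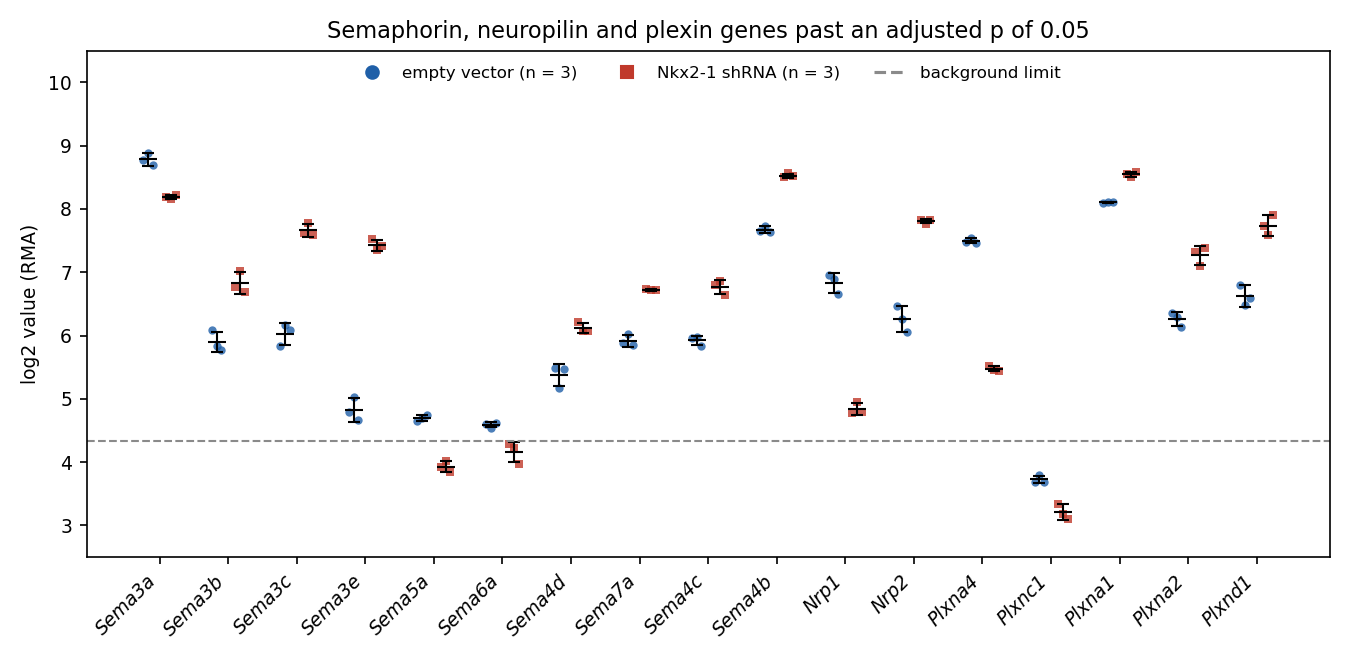
Log2 values (vertical axis) of the 17 semaphorin, neuropilin and plexin genes past an adjusted p of 0.05, 1 point per line, control lines as blue circles and Nkx2-1-shRNA lines as red squares; black bars are the mean and SD of 3 lines. The groups do not overlap for any of them. Nrp1 (4.78 to 4.95 against 6.66 to 6.96) and Nrp2 (7.77 to 7.83 against 6.06 to 6.47) stand side by side with opposite directions, and a dashed line marks the limit for background (4.34), under which Plxnc1 lies in both groups.

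The start regions of the genes past the study's limits in the main comparison are given to show how different these promoters are. The study describes the letters CAAG, or CTTG on the other strand, as the core of the site that NKX2-1 protein binds. Of the 67 guidance genes, 58 had an entry in the RefSeq promoter table (GRCm38.p6; 250 bases before to 50 bases after the start, on the strand of the gene), and Plxna4 was not among them. Both spellings of the core, CAAG and CTTG, are in capitals in the 5 sequences, written 5′ to 3′. The regions are chr5:14025026-14025325 (plus strand) for Sema3e, chr5:17574566-17574865 (plus) for Sema3c, chr8:128358823-128359122 (plus) for Nrp1, chr1:62703067-62703366 (plus) for Nrp2 and chr10:60831532-60831831 (minus) for Unc5b.
Sema3e: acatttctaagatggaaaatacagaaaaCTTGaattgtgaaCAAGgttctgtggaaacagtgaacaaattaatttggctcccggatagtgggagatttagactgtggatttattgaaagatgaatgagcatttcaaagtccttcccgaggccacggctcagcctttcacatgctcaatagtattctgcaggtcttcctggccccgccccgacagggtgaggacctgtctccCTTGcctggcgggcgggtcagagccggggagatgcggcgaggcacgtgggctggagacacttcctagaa
Sema3c: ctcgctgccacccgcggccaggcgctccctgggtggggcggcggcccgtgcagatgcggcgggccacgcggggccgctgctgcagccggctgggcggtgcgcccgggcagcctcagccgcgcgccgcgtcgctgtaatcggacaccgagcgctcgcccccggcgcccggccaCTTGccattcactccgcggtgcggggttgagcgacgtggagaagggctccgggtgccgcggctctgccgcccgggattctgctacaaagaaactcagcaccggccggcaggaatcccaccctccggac
Nrp1: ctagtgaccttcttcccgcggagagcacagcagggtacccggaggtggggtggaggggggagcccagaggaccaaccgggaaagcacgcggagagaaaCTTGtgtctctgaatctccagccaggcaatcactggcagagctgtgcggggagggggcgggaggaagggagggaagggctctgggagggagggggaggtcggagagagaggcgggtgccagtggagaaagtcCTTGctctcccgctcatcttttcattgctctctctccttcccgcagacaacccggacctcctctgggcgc
Nrp2: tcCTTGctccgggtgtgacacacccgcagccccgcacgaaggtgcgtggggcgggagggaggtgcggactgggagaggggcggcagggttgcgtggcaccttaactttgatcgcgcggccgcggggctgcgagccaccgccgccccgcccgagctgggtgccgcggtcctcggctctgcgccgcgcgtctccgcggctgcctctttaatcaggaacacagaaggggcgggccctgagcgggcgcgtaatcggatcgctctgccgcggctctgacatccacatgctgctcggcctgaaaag
Unc5b: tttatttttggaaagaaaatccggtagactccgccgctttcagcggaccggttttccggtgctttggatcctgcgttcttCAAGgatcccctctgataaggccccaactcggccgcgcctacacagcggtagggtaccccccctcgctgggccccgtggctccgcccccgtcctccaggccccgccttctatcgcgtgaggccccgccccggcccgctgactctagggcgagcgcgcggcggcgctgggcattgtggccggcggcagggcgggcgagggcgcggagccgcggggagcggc

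Sema3e held 3 copies of the core, Nrp1 2 copies and Sema3c, Nrp2 and Unc5b 1 copy each. The copies nearest to the start lay 19 bases before it in Sema3e and 20 bases before it in Nrp1, genes that moved in opposite directions. The Sema3e window had 11 CG dinucleotides and a GC content of 50.7%, whereas those of Sema3c, Nrp2 and Unc5b had 42, 37 and 36 and 75.7%, 70.7% and 69.7%; Nrp1 had 14 and 64.0%. A core of 4 letters is common. It was found in 90.6% of all 32851 promoters of the table, in 24 of 25 promoters of the higher guidance genes, in 5 of 5 of the lower ones and in 37 of 44 of those not called. These promoters belong to 19 higher, 5 lower and 34 uncalled genes, so some genes count more than once. The median GC content was 64.2% for the guidance promoters and 52.7% for all promoters, and the shares are not adjusted for this. A match is a run of letters and not a bound site.

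Among the membrane-bound semaphorins of classes 4 to 7, 4 of 13 genes were higher and 2 lower. Sema4b (10554375) stood at 8.50, 8.56 and 8.52 in the knock-down lines and 7.65, 7.73 and 7.64 in the controls (0.85, SE 0.073, adjusted p = 6.2e-04). Sema4c (10353899), a ligand of Plxnb2, stood at 6.79, 6.87 and 6.64 against 5.96, 5.98 and 5.84 (0.84, SE 0.092, adjusted p = 0.00155). Sema7a (10585778), which is anchored by a lipid and linked to fibrosis of the lung, stood at 6.74, 6.71 and 6.71 against 5.88, 6.02 and 5.84 (0.81, SE 0.080, adjusted p = 0.00109). No line of one group reached the other for these 3 genes, and Sema7a was not called when unequal variances were allowed (adjusted p = 0.0634).

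Sema4d, a ligand of Plxnb1 that acts on immune and epithelial cells, was higher (6.21, 6.07 and 6.08 against 5.49, 5.17 and 5.47; 0.74, adjusted p = 0.00530). Its other, dimmer transcript cluster showed 0.069 (95% confidence interval −0.12 to 0.26, adjusted p = 0.637), so the 2 probe sets of this gene disagree. The mean of both gave 0.41 (adjusted p = 0.00598), and with unequal variances the brighter one was not called (adjusted p = 0.0951). Sema5a, a transmembrane semaphorin, fell from 4.65, 4.69 and 4.75 to 3.93, 4.02 and 3.84, which is below the background limit (−0.77, SE 0.083, adjusted p = 0.00147). Sema6a, a transmembrane ligand of Plxna4, went from 4.60, 4.54 and 4.62 to 4.28, 4.22 and 3.97, also below the limit (−0.43, adjusted p = 0.0295). This call ended in 10 of 17 alternatives, among them each fit without 1 line (adjusted p = 0.0639 to 0.0792) other than Nkx2-1-shRNA replicate 1. Class 4 thus gave 3 higher and none lower of 6 genes, and classes 5 and 6 none higher and 2 lower of 6. Sema6d, a ligand of Plxna1, did not pass (−0.26, 95% confidence interval −0.56 to 0.038, adjusted p = 0.227), nor did Sema4a, Sema4f, Sema4g, Sema5b, Sema6b and Sema6c, from −0.15 (Sema6b) to 0.30 (Sema4a).

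Of the 8 ephrin genes, all above the background limit, 5 were higher and none lower, where 10.7% and 9.88% of all genes were. Efna1 (10499536), the main ligand of Epha2, stood at 7.17, 7.02 and 7.04 in the knock-down lines and 6.17, 6.58 and 5.99 in the controls (0.83, SE 0.154, adjusted p = 0.0126). Its control lines were the most scattered of the family, and the call ended without Nkx2-1-shRNA replicate 1 (adjusted p = 0.0510), with the methods' t-test and when unequal variances were allowed (adjusted p = 0.177). Efnb2 (10576911), the ligand of Ephb4 on arterial vessels, stood at 8.91, 8.89 and 8.96 against 8.18, 8.10 and 8.26 (0.74, SE 0.078, adjusted p = 0.00138). Efna5 (10452419) stood at 7.05, 6.87 and 7.21 against 6.49, 6.45 and 6.49 (0.57, SE 0.102, adjusted p = 0.0112; 0.155 when unequal variances were allowed).

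Efna3 and Efna2 rose by 0.45 (adjusted p = 0.0237) and 0.38 (adjusted p = 0.0276). Neither call was stable. That of Efna3 ended without Nkx2-1-shRNA replicate 1 or 2 or control replicate 1 or 3 (adjusted p = 0.0659 to 0.0760), and that of Efna2 without Nkx2-1-shRNA replicate 1 or 2 or control replicate 1 or 2 (adjusted p = 0.0587 to 0.105). Efna4 (0.12, adjusted p = 0.371), Efnb1 (0.11, adjusted p = 0.455) and Efnb3 (−0.068, adjusted p = 0.656) did not pass. By subfamily, 4 of 5 ephrin-A genes were higher and 1 of 3 ephrin-B genes. Efna1, Efna3 and Efna4 lie near each other on chromosome 3, so their changes may not be separate. Whether their shared position had a part was not tested.

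Of the 13 Eph receptor tyrosine kinase genes 3 were higher and none lower. Ephb3 (10434559), known from the sorting of intestinal epithelium, stood at 7.99, 7.89 and 7.89 in the knock-down lines and 7.17, 7.27 and 6.99 in the controls (0.78, SE 0.096, adjusted p = 0.00246; 0.0719 when unequal variances were allowed). Epha2 (10509965), the leading Eph receptor of epithelial and lung cancer cells, stood at 9.38, 9.24 and 9.38 against 8.87, 8.93 and 8.93 (0.42, SE 0.078, adjusted p = 0.0127). Its call ended without Nkx2-1-shRNA replicate 1 (adjusted p = 0.0590) or replicate 3 (adjusted p = 0.0513). Ephb4, the receptor of Efnb2, stood at 7.72, 7.75 and 7.78 against 7.51, 7.43 and 7.44 (0.29, SE 0.073, adjusted p = 0.0363), a call that ended without any 1 of the 6 lines (adjusted p = 0.0631 to 0.116). The groups of these 3 genes did not overlap. The other 10 Eph genes had log2 fold changes from −0.093 (Epha5) to 0.23 (Epha8), and Epha3, Epha5, Epha6, Epha7 and Ephb1 were below the background limit in both groups.

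**Figure D3:**
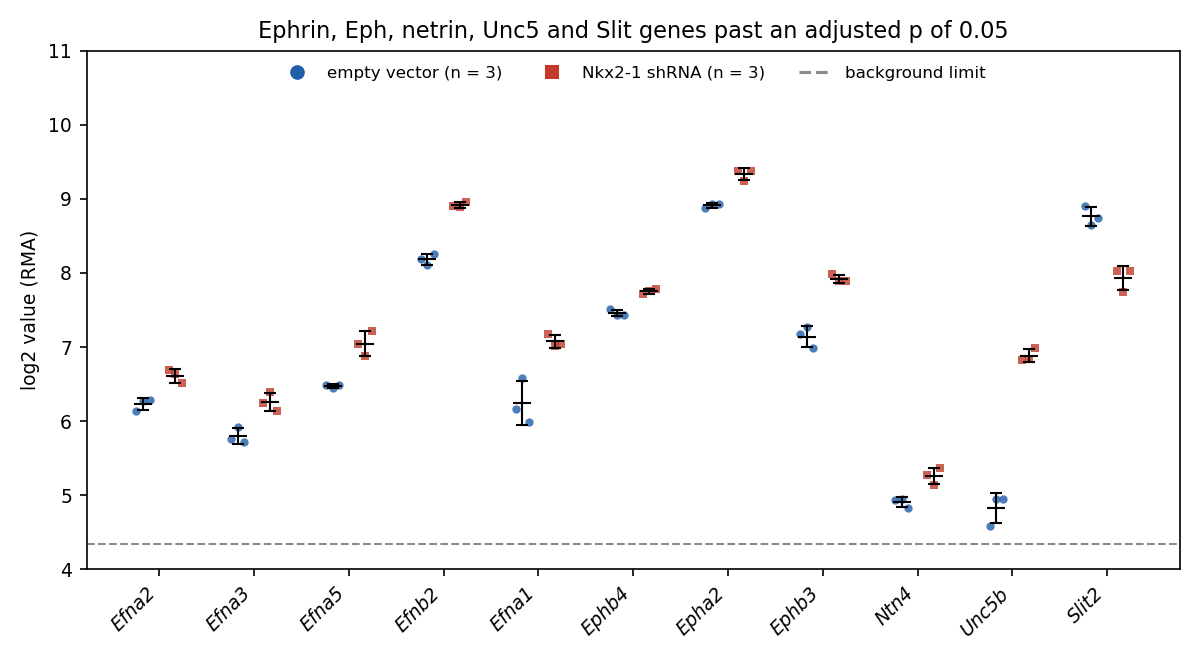
Log2 values (vertical axis) of the 11 ephrin, Eph, netrin, Unc5 and Slit genes past an adjusted p of 0.05, 1 point per line, control lines as blue circles and Nkx2-1-shRNA lines as red squares; black bars are the mean and SD of 3 lines, and a dashed line marks the limit for background (4.34). Unc5b shows the widest gap (4.59 to 4.94 against 6.82 to 6.98), and Slit2 is the only 1 of the 11 that is lower.

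Unc5b (10369388, chromosome 10), a netrin receptor that can signal cell death when no ligand is bound, stood at 6.82, 6.84 and 6.98 in the knock-down lines and 4.59, 4.94 and 4.94 in the controls. The rise was 4.16-fold (2.06, SE 0.120, adjusted p = 1.5e-04), from just above the background limit. The other Unc5 genes did not pass, with values of 0.037 for Unc5a, 0.096 for Unc5c and −0.024 for Unc5d. Of the netrin ligands, Ntn4, a laminin-like protein of basement membranes, stood at 5.28, 5.14 and 5.36 against 4.94, 4.95 and 4.83 (0.35, SE 0.090, adjusted p = 0.0391). That call ended in 8 of 17 alternatives, among them each fit without 1 line (adjusted p = 0.0764 to 0.125) other than Nkx2-1-shRNA replicate 2. Ntn1, the best known netrin, was 4.91, 4.91 and 4.82 against 4.91, 4.92 and 5.09 (−0.096, 95% confidence interval −0.30 to 0.10, adjusted p = 0.523), and Ntn3 (−0.087) and Ntn5 (−0.21) did not pass.

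Slit2, a secreted ligand of Robo receptors, was the only member of its family to pass. It stood at 8.02, 7.74 and 8.03 in the knock-down lines and 8.90, 8.65 and 8.74 in the controls, or 56.1% of control (−0.83, SE 0.115, adjusted p = 0.00394; 0.0557 when unequal variances were allowed). Slit3 had 0.078 (95% confidence interval −0.15 to 0.30, adjusted p = 0.658). Robo1, a receptor of slits, stood at 4.62, 4.65 and 4.66 against 4.23, 4.22 and 4.53, so that every Nkx2-1-shRNA line lay above every control. Its log2 fold change of 0.32 did not pass (adjusted p = 0.0907), while 6 of 17 alternatives called it, with the lowest value without control replicate 3 (adjusted p = 0.0209). Slit1, Robo2, Robo3 and Robo4 were below the background limit in both groups.

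Ligands and receptors that are known to bind were set side by side in 14 pairs. Each ligand was set beside a single receptor, so other receptors that it may bind are left out. Sema3c, for example, is a ligand of neuropilins and was set beside Nrp2 only, while Nrp1 was lower (−1.99). In 4 pairs both genes were higher, namely Sema3c and Nrp2, Sema3e and Plxnd1, Efna1 and Epha2, and Efnb2 and Ephb4. In 2 pairs both were lower, Sema3a with Nrp1 and Sema6a with Plxna4. The pair of Sema7a (0.81) and Plxnc1 (−0.51) moved in opposite directions, with Plxnc1 below the background limit. For Sema4c and Sema4d the ligand was higher and the B plexin did not pass, for Sema6d and Sema3f only the receptor (Plxna1 and Nrp2) was higher, and for Ntn1 only Unc5b. Slit2 was lower while Robo1 did not pass, and neither Slit3 nor Robo2 passed. The calls of Efna1, Epha2, Ephb4 and Sema6a in these pairs ended when single lines were left out, as given above, so that both calls of the Efna1 and Epha2 pair were unstable in this way.

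**Figure D4:**
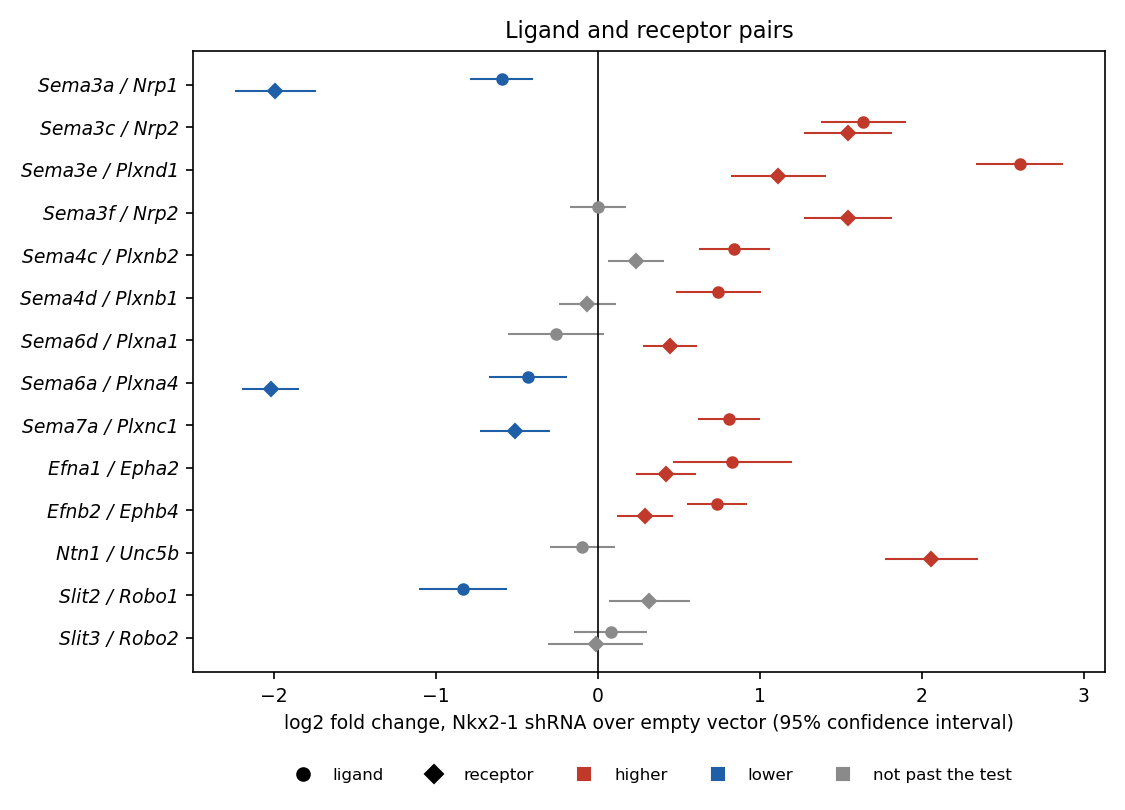
Log2 fold changes (horizontal axis, Nkx2-1-shRNA over control, bars are 95% confidence intervals, n = 3 lines each) of 14 ligand and receptor pairs, ligands as circles and receptors as diamonds. Red marks genes called higher, blue genes called lower and grey those that did not pass. Sema3a and Nrp1, at −0.59 and −1.99, stand on the opposite side of 0 from Sema3c and Nrp2, at 1.64 and 1.54. In the other pair with Nrp2 the ligand Sema3f did not pass (−0.00044).

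Genes that work with these cues inside and beside the cell were read from a list of 76 co-receptors, co-ligands and signaling proteins, of which 74 were measured. Of these, 20 (27.0%) were higher and 5 (6.76%) lower, where 10.7% and 9.88% of all genes were. Above the background limit in at least 1 group were 59 of the 74. The largest change was that of Fyn, a Src family kinase used in Sema3a signaling, which fell from 5.84, 5.92 and 5.61 to 4.08, 3.75 and 3.78, below the background limit (−1.92, adjusted p = 2.4e-04). Vegfa, the growth factor that shares neuropilins with the class 3 semaphorins, stood at 9.94, 9.91 and 9.87 in the knock-down lines and 8.68, 8.63 and 8.61 in the controls (1.27, adjusted p = 1.3e-04). Ngef, an exchange factor that acts next to EphA receptors, rose from 5.49, 5.34 and 5.37 to 6.52, 6.41 and 6.39 (1.04, adjusted p = 4.5e-04). Met, the hepatocyte growth factor receptor, which can associate with B plexins, rose by 1.02 (adjusted p = 0.00166).

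The heparan sulfate proteoglycan gene Sdc1 rose by 0.95 (adjusted p = 9.2e-04) and Farp1, an exchange factor in semaphorin signaling, by 0.90 (adjusted p = 0.00262). Other higher members included Srgap1, a GTPase-activating protein of the Slit and Robo pathway (0.87, adjusted p = 0.00146), the adhesion gene L1cam (0.85, adjusted p = 0.00231), the VEGF receptor gene Flt1 (0.80, adjusted p = 0.00177) and Adam10, a protease that cuts ephrins (0.72, adjusted p = 0.00186). Besides Fyn, the lower members were Chn1 (−0.68, adjusted p = 0.00395), Vegfd (−0.57, adjusted p = 0.00971), Vav3 (−0.56, adjusted p = 0.0357) and Grb10 (−0.33, adjusted p = 0.0433). Chn1 and Grb10 were below the background limit in both groups, and the mean of Vegfd was below it in the knock-down lines (4.32 against 4.88). The netrin receptor gene Dcc (0.13, adjusted p = 0.651) and its relative Neo1 (adjusted p = 0.981) did not pass. The median of the list was 0.15. With a test for unequal variances 9 were higher and 1 lower.

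The study used a list of genes predicted to be targets of mmu-miR-200c-3p, a microRNA of epithelial cells. Its mature sequence (RefSeq, GRCm38.p6, chr6:124718324-124718346, minus strand) is shown because its seed, bases 2 to 8 in capitals, is what such predictions match.
mmu-miR-200c-3p: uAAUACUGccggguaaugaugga

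That list holds 9 of the 67 guidance genes, and they did not move together. Nrp2 (1.54), Plxna2 (1.01), Efna1 (0.83) and Efnb2 (0.74) were higher and Plxna4 (−2.02) and Slit2 (−0.83) lower. Sema6d, Robo2 and Sema3f did not pass, and the near-zero values of Robo2 (−0.015) and Sema3f changed sign in some alternatives. The median of the 9 was −0.00044. The microRNA itself was not measured on these arrays. The paper reports it as higher in the knock-down lines, from separate microRNA arrays and RT-qPCR. There the target list was intersected with genes that fell. Whether the microRNA had a part in the changes of the 9 genes was not tested.

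The genes next to the 28 called guidance genes on their chromosomes were read in the same way. For each called gene, the median log2 fold change of up to 20 neighbors above background, 10 on each side, ran from −0.12 (Plxna2, 12 neighbors) to 0.47 (Sema3a). The sign was the same as that of the guidance gene in 12 of 28 cases, and in none of these 12 did the neighbors' median reach 50% of its size. Around Sema3a the median was opposite in sign to the gene's own −0.59. Around Nrp1, with 11 neighbors in the gene order used, the median was 0.0013, around Nrp2 0.035, around Unc5b 0.0057 and around Plxna4 0.14. These medians are a description and can miss a shift that only some neighbors share. Whether the surroundings had a part in the changes was not tested.

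**Figure D5:**
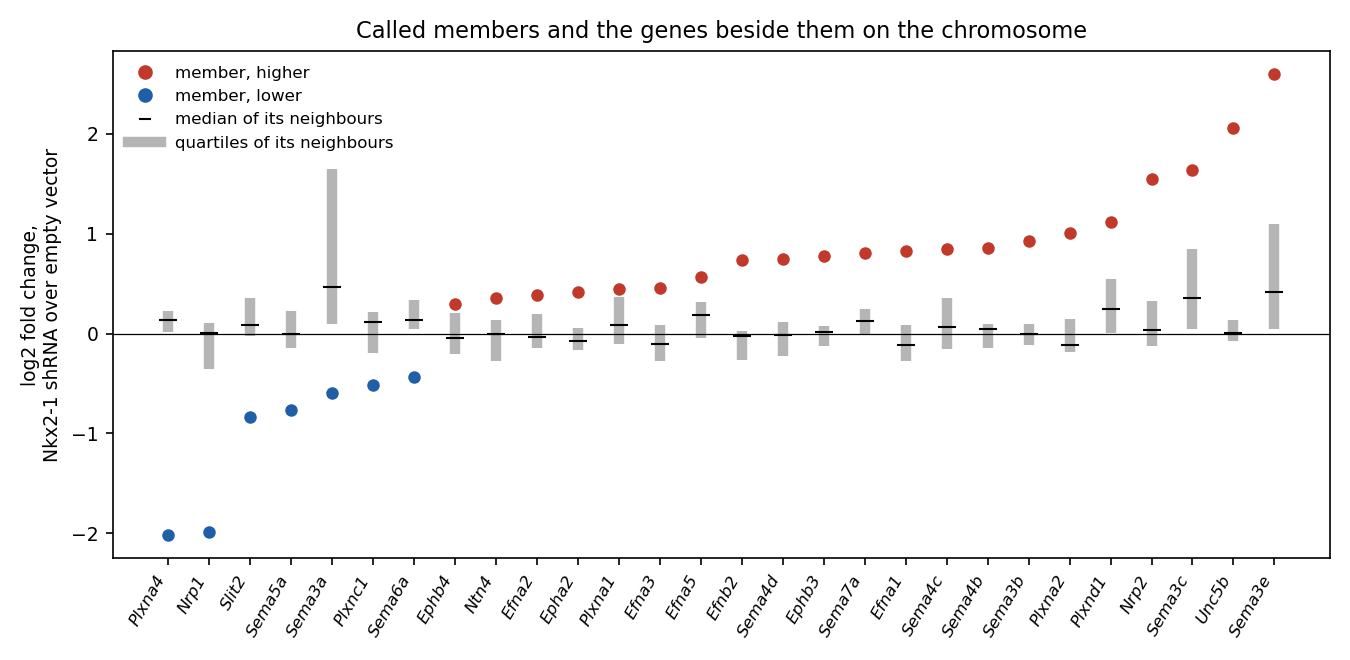
Log2 fold changes (vertical axis, Nkx2-1-shRNA over control) of the 28 called guidance genes, ordered by their change (red higher, blue lower), with the median (black dash) and quartiles (grey bar) of their neighbors above background on the chromosome. The medians are highest around Sema3a, Sema3e and Sema3c on chromosome 5 (0.47, 0.42 and 0.36), which share most of their neighbors. Next come Plxnd1 (0.25, quartiles 0.0042 to 0.55) and Efna5 (0.18, quartiles −0.046 to 0.32).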

How the data were processed

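Mouse Gene 1.0 ST arrays of Affymetrix carried RNA of 6 MLE15 lines (3 Nkx2-1-shRNA, 3 control), 1 array per line. For the deposited log2 values the authors used Affymetrix Expression Console 1.1 with Robust Multi-Array Analysis, which corrects background, normalizes by quantiles and summarizes probes. These values were taken unchanged for 35557 transcript clusters, of which 21789 had a single gene symbol in the platform annotation, 1621 had several, and for 12147 no symbol was listed. The comparison used limma 3.58.1 (lmFit, then eBayes without a block, in R 4.3.3; residual degrees of freedom 4, prior 2.86) with Benjamini-Hochberg adjustment over all transcript clusters, and was checked on simulated data. An array gives no counts, so the number of arrays limits the precision; within a group the SD had a median of 0.134. The methods call the lines independently transduced and the labels give only replicate numbers, so p-values measure the spread between these samples.

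The guidance genes, gene lists and pairs were chosen with earlier results of these data known. Genes were named where they passed the study's threshold, were among the 3 largest called changes of a family or the 6 largest of the signaling list, were well known, were predicted miR-200c targets or belonged to a ligand and receptor pair. The remaining called genes, such as Sema5a, Efna2 and Efna3, were named after their values were seen. So were Srgap1, L1cam, Flt1, Adam10, Chn1, Vegfd, Vav3, Grb10, Dcc, Neo1, Cd36, Gnai1 and single markers of lung epithelium and other cell types. Neighbors followed the gene order of the RefSeq table. Alternatives were the methods' t-test, unequal variances, a trended prior, array weights, median centring, repeated quantile normalization, background filters at the 95th and 90th percentile, transcript clusters with 1 symbol, the mean of clusters per gene, replicate block, each array left out, and an adjusted p under 0.005. The microRNA arrays and other assays of the study were not analysed here.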

Additional observations from a re-analysis of the deposited data

How the results depend on the processing

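Of 795 values of single genes under the 17 alternatives, 716 kept direction and call, 55 lost and 13 gained the call, and 11 changed sign, none of them of a called gene. The higher and lower guidance genes numbered 21 and 7, and 10 and 3 with a test for unequal variances; at an adjusted p under 0.005, 12 were higher. Without 1 line, 15 to 19 were higher and 6 to 7 lower at an adjusted p under 0.05. The study's stricter limits (4 higher, 2 lower) gave 12 and 4 for the mean of clusters per gene, 13 and 4 for clusters with 1 symbol, 0 and 0 with the methods' t-test, unequal variances or the replicate block, and 0 to 1 and 0 when 1 line was left out, so that class depends on the test. The methods' t-test at an adjusted p under 0.05 gave 18 higher and 6 lower.

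The signaling list (20 higher, 5 lower) gave 9 and 1 with unequal variances, 11 and 2 at an adjusted p under 0.005, and 13 to 17 and 3 to 7 without 1 line. Its lower genes were 9 above the 90th percentile background, 8 with array weights, 9 for the mean of clusters, 9 for clusters with 1 symbol, and 3 each with median centring, the methods' t-test and the replicate block. Nkx2-1 kept −0.69 with unequal variances (adjusted p = 0.0550). Signs turned for Plxnb1 (0.013, median centring), Robo2 (0.032 with array weights, 0.066 with median centring, 0.035 with repeated quantile normalization, −0.11 to 0.11 without 1 line) and Sema3f (0.0090 with array weights, 0.080 with median centring, −0.026 to 0.025 without 1 line); the causes were not tested. Of the member calls, 75% were higher, 79.3% with median centring and 78.6% with repeated quantile normalization; over all transcript clusters these shares were 45.2%, 59.5% and 49.9%.

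Same-numbered lines had correlated deviations of 0.058, 0.136 and −0.034, so the numbers are not shown to pair the samples. With the replicate block 18 guidance genes were higher and 6 lower. Arrays give no depth; for the 13 guidance genes below the background limit in both groups no change can be read with confidence, and 3 lines a group limit what small differences can be seen.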
